A study of Mus musculus with 28 samples.

Results

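Transcripts of 10 genes that set, copy, remove or accompany methylation of DNA were followed in CD4+ T cells from the small intestine of mice given an antibody against CD3 (aCD3). The genes were taken from the expression table by symbol from a list of names, with no threshold on a measured value. They are Dnmt1, Uhrf1, Hells, Dnmt3a, Dnmt3b, Tet1, Tet2, Tet3, Ezh2 and Ezh1, 10 of the 25124 genes in the table. All 10 had a value of at least 1 TPM in at least 6 libraries and entered the tests, which covered 12182 genes. Dnmt1, Dnmt3a and Dnmt3b are DNA methyltransferases and the 3 Tet genes code for enzymes of demethylation, but Ezh1 and Ezh2 methylate a histone, Uhrf1 is a ubiquitin ligase and Hells a chromatin remodeller, so the group is wider than DNA-modifying enzymes alone.

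All mice carried a T-bet-ZsGreen reporter, in which a green fluorescent protein marks expression of the transcription factor T-bet. Some mice had a normal flora free of specific pathogens (SPF) and some were germ-free (GF). Each received either aCD3, an antibody that binds the signalling chains of the T cell receptor, or an isotype antibody as control. Live CD45+ CD90.2+ TCRb+ CD4+ cells of the lamina propria, the connective tissue under the gut epithelium, were sorted and their RNA sequenced. Among SPF mice 6 libraries had isotype and 6 aCD3, each with 3 females and 3 males. Among GF mice 10 libraries had isotype, 5 of each sex, and 6 had aCD3, of which 1 was female. Age, dose and time after injection were not used here. F or M in a library's name gives the sex, and the number is the replicate. The labels do not say that each library is a separate mouse, so p-values measure the spread between these libraries. That spread was estimated per gene from all 28 libraries and shared by the 4 groups. A standard error (SE) is therefore not the spread of the 2 groups compared. For Tet3, for example, the SD was 0.295 TPM in SPF aCD3 and 6.543 TPM in GF aCD3.

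Methylation of cytosine in CG dinucleotides is copied after DNA replication by Dnmt1, which Uhrf1 brings to the half-methylated daughter strands and to which Hells opens the chromatin. Dnmt3a and Dnmt3b place methyl groups on sites that had none. The Tet enzymes oxidise the methyl group, the first step of its removal. Ezh2 and Ezh1 are the alternative catalytic subunits of Polycomb repressive complex 2, which methylates histone H3 at lysine 27. In T cells Dnmt1, Dnmt3a, Tet2 and Ezh2 are known for their part in fixing or relaxing the choice of a helper cell fate.

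Libraries held 6765529 to 17860613 reads in genes, and the fewest reads behind a value of any member were 24, for Tet1. TPM is a share of a library, and aCD3 moved the whole scale. Histone genes took 4.05 to 7.04% of the summed TPM in SPF isotype and 23.8 to 26.8% in SPF aCD3. The median tested gene changed by -0.35 on the log2 scale with aCD3 in SPF and by -0.15 in GF. Values after median-of-ratios scaling, which centres the typical gene near 0, are therefore given as well. They cover all members in SPF, some members in the other comparisons, and counts for lists. T cell markers were present in every library, with summed TPM of 10 CD4 T cell genes between 1998 and 2761. Of genes of other cell types, 4 of 4 tested stromal genes (of 7 listed) were lower in SPF aCD3 than in SPF isotype, with summed TPM of 15.01 to 50.8 in isotype and 2.86 to 6.02 in aCD3, where Col1a2 was at 0 in all libraries. Myeloid genes summed to 2.16 to 22.8 TPM in isotype and 61.6 to 108.4 TPM in aCD3, with 2 of 4 tested genes (of 8 listed) higher and 1 lower. Most of that sum was Cd68, with a mean of 5.99 TPM in isotype and 76.5 TPM in aCD3, whereas Fcer1g had 8.07 and 2.95 TPM. B and plasma cell genes summed to 192.4 to 375.6 TPM in isotype and 87.6 to 154.6 TPM in aCD3, with 2 of 4 tested genes (of 9 listed) lower. The 2 CD8 genes summed to 5.68 to 13.5 TPM in isotype and 9.75 to 23.8 TPM in aCD3, and 1 of them, Cd8b1, was higher. No tested epithelial gene passed (0 of 5). Erythroid genes summed to 2.29 to 10.2 TPM in isotype and 0.716 to 1.28 TPM in aCD3, where 5 of 6 listed were at 0 in every library, and the 1 tested did not pass. In GF no tested gene of another cell type passed between aCD3 and isotype. The part of these genes in the results on the members was not tested. In bulk RNA, fewer cells of a kind and less RNA per cell cannot be told apart.

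In SPF mice aCD3 was followed by opposite changes within the group. The maintenance genes Dnmt1, Uhrf1 and Hells and the Polycomb gene Ezh2 rose, and Dnmt3a, Tet1, Tet2, Tet3 and Ezh1 fell, while Dnmt3b did not pass the test. That is 4 of 10 members higher and 5 of 10 lower by limma with Benjamini-Hochberg adjustment over all tested genes, against 14.2% of tested genes called higher and 50.7% called lower. After median-of-ratios scaling the same 4 were higher and the same 5 lower, against 30.2% and 29.8% of tested genes. The reading against the background depended on the scale: from TPM as deposited the share of members lower was near it and the share higher above it, whereas after scaling both shares were above it. Fold changes were fitted on log2(TPM + 1), where the added 1 shrinks the change of genes at low level.

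Dnmt1, which copies methylation at the replication fork, lay between 25.1 and 32.6 TPM (median 29.5) in SPF isotype and between 49.8 and 61.8 TPM (median 55.9) in SPF aCD3. The groups did not overlap, and the log2 fold change was 0.90 (SE 0.135, adjusted p = 9.31e-06). Uhrf1, the reader of half-methylated DNA that recruits Dnmt1, ran from 4.20 to 9.36 TPM (median 6.96) in isotype and from 26.7 to 50.2 TPM (median 42.9) in aCD3. Its change was the largest of the 10 members, at 2.43 (SE 0.37, adjusted p = 1.05e-05), and its lowest aCD3 library, M2, stood above every isotype library. Hells, the remodeller that gives Dnmt1 access to packed chromatin, ran from 5.63 to 8.06 TPM (median 5.80) in isotype and from 15.5 to 27.8 TPM (median 21.5) in aCD3. No library of the aCD3 group came down to the isotype range, with a log2 fold change of 1.62 (SE 0.26, adjusted p = 1.76e-05). In all 3 maintenance genes the SPF aCD3 library M2 was the lowest of its group. After scaling the log2 fold changes were 1.31 (SE 0.19) for Dnmt1, 2.83 (SE 0.42) for Uhrf1 and 2.02 (SE 0.31) for Hells.

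Dnmt3a, a methyltransferase for new sites, went the other way from Dnmt1. It lay between 12.8 and 17.4 TPM (median 14.2) in isotype and between 7.39 and 10.9 TPM (median 8.39) in aCD3, with no overlap. The log2 fold change was -0.68 (SE 0.13, adjusted p = 0.000113), and -0.30 (SE 0.12, adjusted p = 0.0294) after scaling, so the size of this fall depended on how the libraries were scaled. Dnmt3b, its relative, was low throughout, at 0.729 to 1.36 TPM (median 0.906) in isotype and 0.499 to 0.944 TPM (median 0.612) in aCD3. The ranges overlapped and the change of -0.21 (SE 0.12) did not pass (limma adjusted p = 0.126). After scaling it was -0.03 (SE 0.11, limma adjusted p = 0.8157). Within a library the ratio of Dnmt1 to Dnmt3a ran from 1.84 to 2.20 in isotype and from 4.97 to 7.73 in aCD3, with no overlap.

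All 3 Tet genes were lower with aCD3 in SPF. Tet1 was near the floor of the assay, with 0.747 to 1.39 TPM (median 1.18) in isotype and 0.150 to 0.432 TPM (median 0.267) in aCD3, the latter resting on 24 to 60 reads a library. Its log2 fold change was -0.71 (SE 0.15, limma adjusted p = 0.000206), a value that the pseudocount of 1 holds down at this level. After scaling the change of Tet1 was -0.59 (SE 0.13). Tet2, the member of the family most often mutated in blood cancers, ran from 8.56 to 16.0 TPM (median 14.3) in isotype and from 6.37 to 9.38 TPM (median 7.86) in aCD3. The groups overlapped through the isotype library F3 alone, at 8.56 TPM, since the other isotype libraries began at 13.4 TPM. The log2 fold change of Tet2 was -0.71 (SE 0.16, adjusted p = 0.000337), and -0.34 (SE 0.099, adjusted p = 0.0050) after scaling. Tet3 was between 10.4 and 17.4 TPM (median 15.7) in isotype and in a tight band of 6.44 to 7.09 TPM (median 6.72) in aCD3. Its log2 fold change was -1.04 (SE 0.19, adjusted p = 5.46e-05), the steepest fall among the Tet genes on this scale, though the difference between the Tet genes was not tested, and after scaling it was -0.67 (SE 0.13).

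The 2 Polycomb methyltransferases moved apart. Ezh2, the subunit of dividing cells, ran from 6.64 to 8.40 TPM (median 6.90) in isotype and from 9.48 to 14.3 TPM (median 13.2) in aCD3, a log2 fold change of 0.71 (SE 0.13, adjusted p = 4.29e-05), and of 1.09 (SE 0.16) after scaling. Ezh1, the subunit of resting cells, ran from 18.4 to 28.9 TPM (median 25.9) in isotype and from 7.19 to 11.6 TPM (median 9.53) in aCD3. Its log2 fold change was -1.31 (SE 0.23, limma adjusted p = 3.74e-05), and -0.93 (SE 0.18) after scaling. Neither gene had overlapping groups. The ratio of Ezh2 to Ezh1 was 0.230 to 0.373 in isotype libraries and 0.816 to 1.99 in aCD3 libraries. Over the whole group of 10, 4 members had every aCD3 library above every isotype library, against 8.57% of tested genes, and 4 members (Dnmt3a, Tet1, Tet3 and Ezh1) every aCD3 library below, against 33.4%. Leaving out any SPF library in turn kept the same 9 members called, with adjusted p of at most 0.0013.

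**Figure D1:**
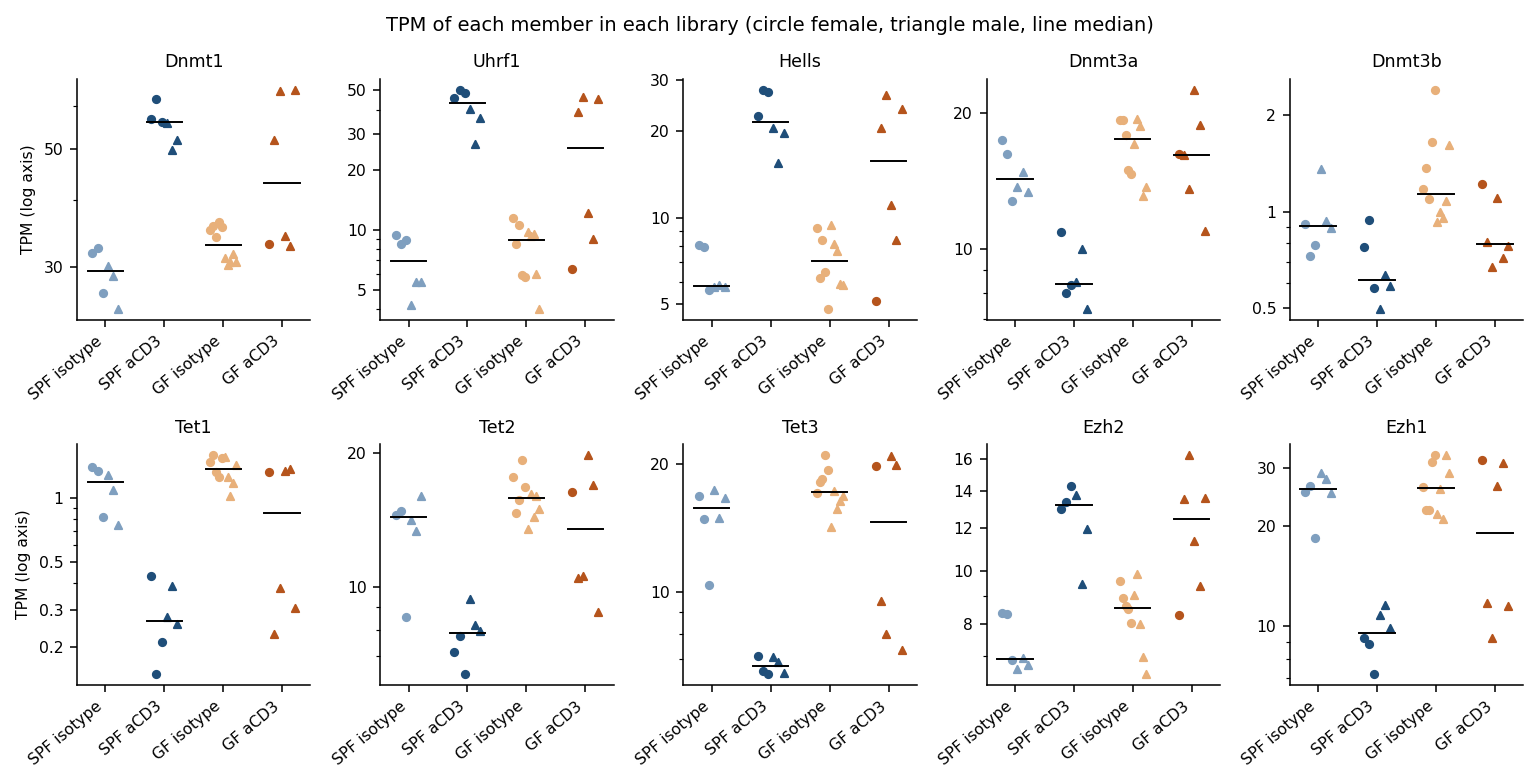
TPM of the 10 genes in each of 28 libraries (log axis), by group; circles are female, triangles male libraries and the line is the median. In SPF, Dnmt1, Uhrf1, Hells and Ezh2 lie above their isotype range with aCD3 and Dnmt3a, Tet1, Tet3 and Ezh1 below it, while the 6 GF aCD3 libraries are spread widely and, for Dnmt3a and Tet3, all lie above the SPF aCD3 range.

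**Figure D2:**
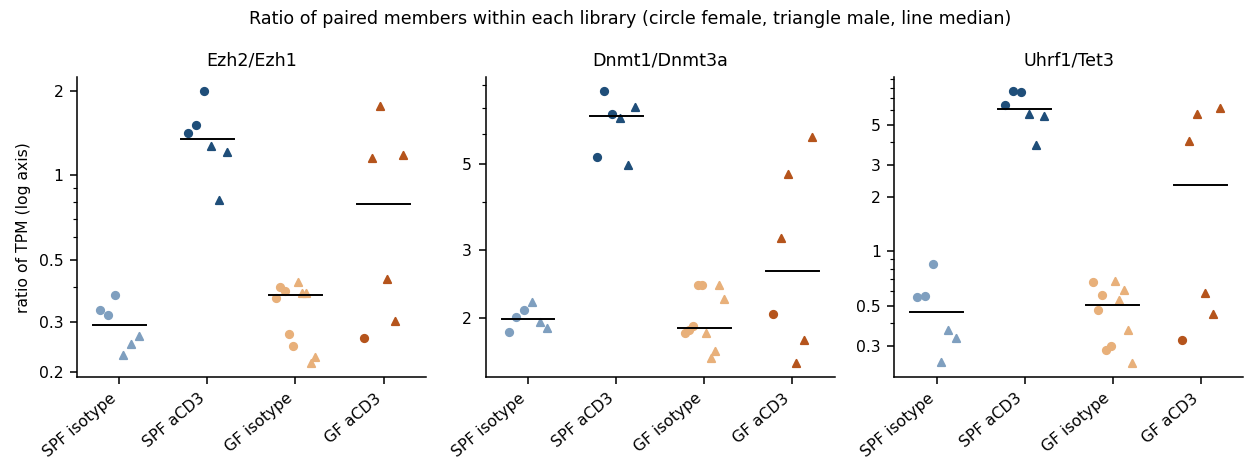
Ratios of TPM within each library (log axis) for Ezh2 to Ezh1, Dnmt1 to Dnmt3a and Uhrf1 to Tet3, by group, with the median as a line. The 6 SPF aCD3 libraries lie above all isotype libraries in each ratio, and GF aCD3 libraries fall on both sides.

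The promoters of the 10 genes were read for the words that E2F factors, which switch on genes for DNA replication, are known to bind, because 4 members rose with a set of cell cycle genes. Windows of 250 bases before and 50 after each RefSeq transcript start (GRCm38.p6) were found for all 10 members, 15 windows in all. The E2F words searched were TTTCCCGC, TTTGGCGC, TTTCGCGC and TTTGCCGC, on either strand. They were present in 2.26% of all 32851 windows, and in 4.05% of the windows of tested genes. A word was found in a window of Dnmt1, Uhrf1, Hells and Ezh2, the 4 members that rose, and in no window of the other 6. Counted by gene, 4.79% of tested genes with a window had a word in at least 1 of them. The sites are shown with their flanks, each written in the direction of its gene with the word in capitals.
Uhrf1: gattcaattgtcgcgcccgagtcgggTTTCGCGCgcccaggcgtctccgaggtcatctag
Hells: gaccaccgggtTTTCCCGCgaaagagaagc
Ezh2: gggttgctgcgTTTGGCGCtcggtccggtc
Dnmt1, first site: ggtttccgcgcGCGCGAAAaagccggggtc
Dnmt1, second site: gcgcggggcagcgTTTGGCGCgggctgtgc
The Uhrf1 stretch lies at chr17:56304102-56304161 on the plus strand, in no annotated exon of the gene. The Hells stretch lies at chr19:38930917-38930946 on the plus strand, and the Ezh2 stretch at chr6:47595009-47595038 on the minus strand. The Dnmt1 stretches lie at chr9:20952824-20952853 and chr9:20952574-20952603 on the minus strand, within the window of a start at 20952623, whereas the start of the transcript in the expression table, at 20952979, has no word in its window. In GENCODE M21 the Hells, Ezh2 and Dnmt1 stretches overlap an annotated exon of their gene, which is why only 30 bases of each are shown. The word of the cell cycle homology region, TTTGAA or TTCAAA, was in the window of Dnmt3b and in 1 of 3 windows of Dnmt1, against 17.9% of all windows and 12.3% of those of tested genes. Such matches are letters in a window and no evidence that a factor was bound.

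Counts of CG dinucleotides, the sites of the DNA methylation described above, ran from 2 to 57 over the 15 windows of the members. The median was 7 over all windows and 20 over those of tested genes. Tet2 had the most, with 57. The lowest, with 2, was a window upstream of Dnmt1 that is not the start used in the table.

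In GF mice the same comparison gave calls in 4 members, all higher with aCD3. Dnmt1, Uhrf1, Hells and Ezh2 passed by limma, each with an adjusted p of 0.0481, against 2.46% of tested genes called higher and 4.61% called lower. None of the 6 others passed. No member had groups that did not overlap, which held for 0.0657% of tested genes. These calls were at the edge of the threshold, as 862 genes were called in all but 4351 had an unadjusted p under 0.05, 7 of the members among them. The 4 calls were lost with a pseudocount of 0.1 (limma adjusted p = 0.0514), with no filter on low values (0.0822) and with the 2 groups fitted alone (0.2466).

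The 6 GF aCD3 libraries were far apart. Uhrf1 was at 38.9, 46.0 and 45.4 TPM in the GF aCD3 libraries M1, M2 and M5, at 12.2 TPM in M3, 8.93 TPM in M4 and 6.35 TPM in F1. The 10 GF isotype libraries ran from 4.01 to 11.5 TPM (median 8.89), so that 3 aCD3 libraries were in the range of the SPF aCD3 group, M3 was just above the isotype range and M4 and F1 were within it. The log2 fold change of Uhrf1 in GF was 1.29 (SE 0.34). Dnmt1 was again higher in M1, M2 and M5 than in the other GF aCD3 libraries, at 51.97, 64.0 and 64.3 TPM in M1, M2 and M5 and 34.3, 32.9 and 33.2 TPM in M3, M4 and F1. Its isotype libraries lay between 30.4 and 36.5 TPM, and the log2 fold change was 0.45 (SE 0.12). Hells stood at 20.4, 26.6 and 23.8 TPM in M1, M2 and M5, at 11.035 TPM in M3 and at 8.35 and 5.14 TPM in M4 and F1. Against an isotype range of 4.83 to 9.42 TPM the log2 fold change of Hells was 0.85 (SE 0.24).

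Ezh2 had 13.5, 16.3 and 13.6 TPM in M1, M2 and M5, 11.3 TPM in M3, 9.40 TPM in M4 and 8.32 TPM in F1. Isotype libraries ran from 6.49 to 9.90 TPM, and the log2 fold change was 0.47 (SE 0.12). Ezh1 had 11.7, 9.22 and 11.5 TPM in M1, M2 and M5, below every isotype library (21.0 to 32.7 TPM), but 26.5, 31.01 and 31.7 TPM in M3, M4 and F1. Its change of -0.51 (SE 0.21) did not pass (adjusted p = 0.0924). Tet3 was likewise at 9.54, 7.97 and 7.33 TPM in M1, M2 and M5 and at 20.8, 19.9 and 19.7 TPM in M3, M4 and F1, against 14.2 to 20.9 TPM in isotype. The change of Tet3 was -0.35 (SE 0.18, adjusted p = 0.1496), and -0.20 (SE 0.12, adjusted p = 0.2525) after scaling.

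Tet1 held 0.230, 0.379 and 0.307 TPM in M1, M2 and M5 and 1.33, 1.37 and 1.32 TPM in M3, M4 and F1, with isotype libraries between 1.021 and 1.58 TPM. Its change was -0.39 (SE 0.14, adjusted p = 0.0603). Tet2 was at 10.5, 10.6 and 8.80 TPM in M1, M2 and M5, under the isotype range of 13.5 to 19.3 TPM, and at 19.8, 16.9 and 16.3 TPM in M3, M4 and F1. With a log2 fold change of -0.24 (SE 0.14) it did not pass (adjusted p = 0.223), and after scaling it was at -0.085 (SE 0.091, adjusted p = 0.5408). Dnmt3b, between 0.671 and 1.22 TPM with aCD3 and between 0.933 and 2.40 TPM with isotype, had a fitted difference of -0.25 (SE 0.11, adjusted p = 0.1143), and of -0.16 (SE 0.0996, adjusted p = 0.2774) after scaling. Dnmt3a was at 16.1, 13.6 and 10.97 TPM in M1, M2 and M5 and at 22.5, 18.8 and 16.2 TPM in M3, M4 and F1, where M3 exceeded every isotype library (13.1 to 19.3 TPM). Its change was -0.03 (SE 0.12, adjusted p = 0.8713), and 0.13 (SE 0.11, adjusted p = 0.4216) after scaling, so the GF data give no direction for Dnmt3a.

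The 3 libraries with the high values of Uhrf1 were also those with the highest histone share of TPM and the highest proliferation genes. Summed TPM of 30 proliferation genes was 2196, 2617 and 2367 in M1, M2 and M5, 884.9 in M3, 575.0 in M4 and 503.5 in F1, against 420.9 to 817.5 in GF isotype. Histone genes took 5.39 to 25.97% of the summed TPM over the 6 GF aCD3 libraries. Sums of genes of other cell types also separated these libraries for 4 lists. Summed myeloid genes were at 51.4, 50.2 and 61.3 TPM in M1, M2 and M5 and at 12.2, 16.9 and 20.97 TPM in M3, M4 and F1. Summed stromal genes were at 5.01, 3.65 and 3.67 TPM in M1, M2 and M5 and at 9.49, 9.96 and 11.5 TPM in M3, M4 and F1. Epithelial genes summed to 4.97 to 7.61 TPM in M1, M2 and M5 and to 9.31 to 28.9 TPM in M3, M4 and F1, and CD8 genes to 9.59 to 13.0 and 3.47 to 7.56 TPM. In GF isotype the sums were 8.87 to 25.97 TPM for myeloid, 7.61 to 13.8 TPM for stromal and 5.15 to 43.0 TPM for epithelial genes. CD8 genes there summed to 1.25 to 61.2 TPM (median 2.90), the highest being GF isotype M4. The part of these genes was not tested. Because the labels give no group within GF aCD3, these libraries were not compared as classes. Leaving out M1, M2 or M5, or any of the 10 GF isotype libraries, ended the call of all 4 members, while leaving out F1, M3 or M4 brought the calls to 7 by adding Tet1, Tet3 and Ezh1. Without F1, M3 or M4 the genes called over the whole table also rose, from 862 to 3627, 4215 and 3861 of 12182. Adjusted p over these 16 fits ran from 0.0028 to 0.1782 for Dnmt1, Uhrf1, Hells and Ezh2 together, and the log2 fold changes kept their sign.

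**Figure D3:**
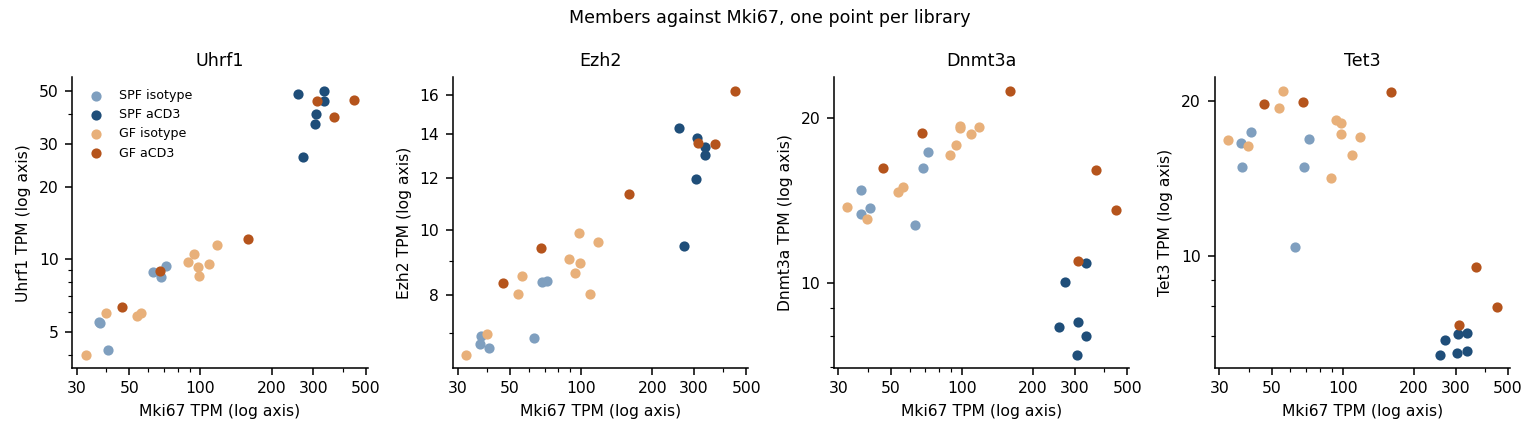
TPM of Uhrf1, Ezh2, Dnmt3a and Tet3 against TPM of Mki67, a proliferation marker, one point per library (both axes log), coloured by group. For Uhrf1 and Ezh2 the GF aCD3 points lie partly with the SPF aCD3 libraries and partly with the isotype libraries. M3, at 159.7 TPM of Mki67, lies between them for Uhrf1, within the SPF aCD3 range for Ezh2, and carries the highest Dnmt3a. For Dnmt3a and Tet3 every GF aCD3 library lies above every SPF aCD3 library. Dnmt3a of M1 and M2, at 16.1 and 13.6 TPM, lies within the GF isotype range.

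The column names of the table number the GF libraries in 2 blocks, 25 to 33 and 48 to 54, while SPF libraries hold other numbers, so the block and the flora cannot be told apart between GF and SPF. Within GF isotype the blocks (6 and 4 libraries) differed for some members. Dnmt3a was at 17.1 to 19.3 TPM in the first block and 13.1 to 14.98 TPM in the second, and Uhrf1 at 8.51 to 11.5 and 4.01 to 5.96 TPM. Ezh1 ran the other way, at 21.0 to 26.2 and 28.9 to 32.7 TPM. These 2 members above and 1 below, out of 10, compare with 4.53% and 5.51% of tested genes. Mki67 also separated the blocks, at 88.9 to 118.0 and 32.7 to 56.0 TPM. The part of Mki67 or of proliferation in these differences was not tested.

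With the block as a term in the fit, 6 members passed in GF: Dnmt1, Uhrf1, Hells and Ezh2 higher, Tet1 at -0.40 (SE 0.14, adjusted p = 0.0446) and Ezh1 at -0.58 (SE 0.19, adjusted p = 0.0414) lower. That fit called 2215 of 12182 genes, against 862 without the term. Fitted within the first block alone, the log2 fold change was 0.64 for Dnmt1, 1.47 for Uhrf1, 1.04 for Hells and 0.55 for Ezh2. Within the second block it was 0.28, 1.16, 0.65 and 0.41 in the same order. None passed within a block by limma, where 0 genes of the table did. Before adjustment 1661 genes in the first block and 300 in the second had p below 0.05.

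**Figure D4:**
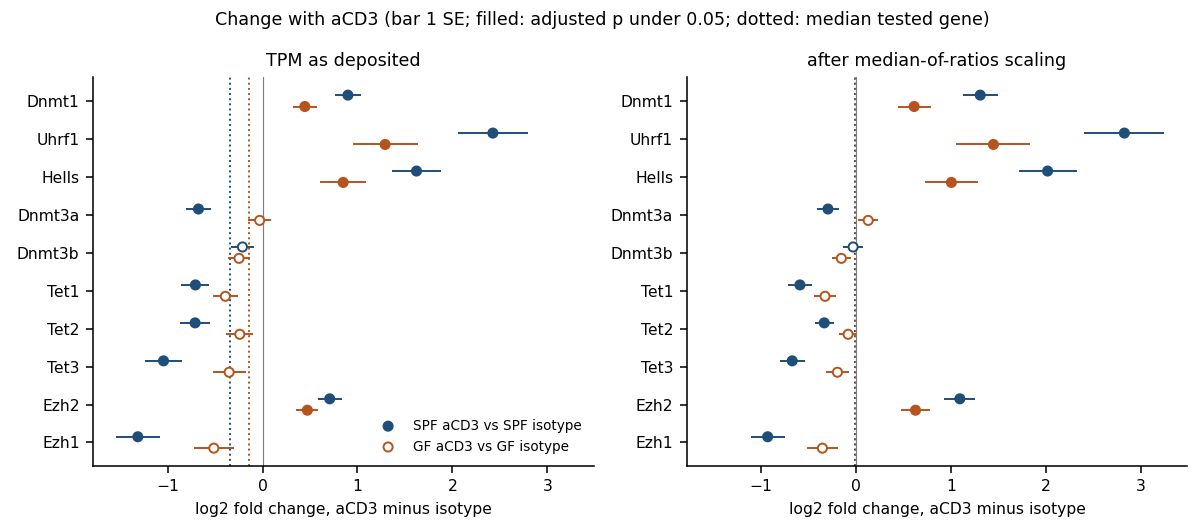
Log2 fold change of each member with aCD3 in SPF (blue) and GF (orange), with 1 SE, from TPM as deposited (left) and after median-of-ratios scaling (right); filled points passed an adjusted p of 0.05 and dotted lines are the median tested gene. Dnmt1, Uhrf1, Hells and Ezh2 pass in both flora states under both scalings, and the 5 members that fall in SPF do not pass in GF.

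Whether the effect of aCD3 differed between GF and SPF was tested as an interaction. Of 10 members only Dnmt3a passed, with a GF minus SPF difference of 0.65 (SE 0.18, limma adjusted p = 0.0473), against 3.48% of tested genes. That call rested on single choices: it was lost after scaling (0.42, limma adjusted p = 0.0706), with a pseudocount of 5 (0.49, 0.0639), with voom on recovered reads (0.48, 0.0517) and on leaving out 22 of the 28 libraries, all except SPF isotype F3, SPF aCD3 F1, GF isotype M2 and GF aCD3 M1, M2 and M5. Over the leave-one-out fits the adjusted p of Dnmt3a ran from 0.0070 to 0.1128. The other differences did not pass, among them -1.14 (SE 0.50, adjusted p = 0.1253) for Uhrf1, -0.45 (SE 0.18, adjusted p = 0.1008) for Dnmt1, 0.69 (SE 0.26, adjusted p = 0.0847) for Tet3 and 0.80 (SE 0.31, adjusted p = 0.0936) for Ezh1. Without SPF isotype F3 the members called were 3, adding Tet2 and Tet3, and without GF aCD3 M1 also 3, adding Tet3 and Ezh1. Without GF aCD3 M2 or M5 there were 6. In these 4 fits the genes called over the whole table rose from 424 to 2083, 2056, 2491 and 3187 of 12182, in the same order. In the fitted values 9 members had a smaller response in GF and Dnmt3b a larger one, and 7 of the 10 differences had an unadjusted p under 0.05. With all libraries and after scaling the difference was -1.38 (SE 0.58) for Uhrf1 and -0.70 (SE 0.25) for Dnmt1. It was 0.48 (SE 0.18) for Tet3 and 0.58 (SE 0.24) for Ezh1. No member passed on that scale, where 1381 of 12182 genes did.

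The flora by itself was compared in mice given isotype. No member passed between GF isotype and SPF isotype by limma, 1 (Dnmt3b, at 0.25, SE 0.11) having an unadjusted p under 0.05, against 6.42% of tested genes called higher in GF and 0.755% lower. The fitted changes of the members ran from 0.06 for Ezh1 to 0.25 for Dnmt3b, around the median gene at 0.15. After scaling no member passed either, where 63 genes were called higher and 141 lower of 12182. Of 20 tested genes of other cell types, 4 were lower in GF isotype and none higher. The number of tested genes called, 874, fell to 322 without SPF isotype F3 and to 567 without SPF isotype F1, and the number of members called was 0 in each of the 16 leave-one-out fits.

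Among mice given aCD3, GF libraries had lower Uhrf1 (-0.95, SE 0.38, adjusted p = 0.037) and Hells (-0.65, SE 0.27, adjusted p = 0.0438) than SPF libraries by limma. They had higher Dnmt3a (0.82, SE 0.14, adjusted p = 0.000213), Tet1 (0.48, SE 0.15, adjusted p = 0.0101), Tet2 (0.70, SE 0.16, adjusted p = 0.0014), Tet3 (0.89, SE 0.19, adjusted p = 0.0011) and Ezh1 (0.86, SE 0.24, adjusted p = 0.0046). These 5 of 10 higher and 2 of 10 lower compare with 48.9% and 4.46% of tested genes, and after scaling 5 higher and 4 lower, now with Dnmt1 and Ezh2, compare with 16.1% and 16.7%. Dnmt3a and Tet3 had every GF library above every SPF library, which held for 12.2% of tested genes, and no member the reverse (0.78%). For Dnmt3a even the lowest GF aCD3 library, M5 at 10.97 TPM, stood just above the highest SPF aCD3 library, F1 at 10.88 TPM. The calls of Uhrf1 and Hells were lost without SPF aCD3 F1, F2, F3, M1 or M3 or GF aCD3 F1, M3 or M4, and that of Tet1 without GF aCD3 F1. Without GF aCD3 F1 the change was -0.49 for Uhrf1 and -0.30 for Hells. With all libraries the calls of Uhrf1 and Hells were also lost with no filter on low values (limma adjusted p = 0.0653 and 0.0748), with array weights (0.2129 and 0.2549) and with the 2 groups fitted alone (0.0945 and 0.131), and that of Tet1 with array weights (0.0762). After scaling the higher members had smaller differences, of 0.45 for Dnmt3a, 0.33 for Tet2, 0.52 for Tet3 and 0.48 for Ezh1, and Hells a larger one, of -1.03. Dnmt1 went from -0.27 (limma adjusted p = 0.0962) to -0.67 (SE 0.19, adjusted p = 0.0113) and Ezh2 from -0.06 (adjusted p = 0.7053) to -0.44 (SE 0.17, adjusted p = 0.0457), while Dnmt3b, not called, went from 0.22 to 0.036. Of 20 tested genes of other cell types 4 were higher and 3 lower in GF aCD3 than in SPF aCD3, and their part was not tested. This comparison shares its libraries with those above.

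Between the sexes no member passed. None of 10 did so between male and female libraries, nor had an unadjusted p under 0.05, by limma over all groups, against 0.107% of tested genes. The fitted differences lay between -0.13 for Dnmt3b and 0.06 for Hells.

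Levels of different genes can be compared only per length, and TPM here was divided by the genomic span with introns, which favours compact genes. Reads per kilobase of spliced transcript, scaled to the reads in genes of each library, using the GENCODE M21 length of the RefSeq transcript named in the table, were therefore computed for the 10 members (the scale of RPKM). The length was found by accession for all 10, but the transcript held the bases just after a RefSeq start for 6 of them, so the lengths of the other 4 are less sure. On that scale Dnmt1 was the highest member in all 4 groups, with a median of 36.7 for SPF mice on isotype, 91.2 for SPF mice on aCD3, 39.1 for GF mice on isotype and 58.5 for GF mice on aCD3. In SPF isotype Ezh1 (31.4) and Ezh2 (24.9) followed, then Tet2 (18.2), Tet3 (16.6), Dnmt3a (8.86), Hells (5.61), Uhrf1 (5.57), Dnmt3b (1.19) and Tet1 (0.976). Neighbours in this order whose ranges overlapped were Dnmt1 and Ezh1, Ezh1 and Ezh2, Tet2 and Tet3, Hells and Uhrf1, and Dnmt3b and Tet1.

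In SPF aCD3 the order was Dnmt1, Ezh2 (57.7), Uhrf1 (46.4), Hells (26.2), Ezh1 (15.4), Tet2 (13.0), Tet3 (9.37), Dnmt3a (6.71), Dnmt3b (1.07) and Tet1 (0.290). Of neighbours in this order Ezh2 and Uhrf1, Uhrf1 and Hells, Ezh1 and Tet2, and Tet3 and Dnmt3a overlapped. Uhrf1 thus moved from the eighth place to the third and Ezh1 from the second to the fifth. Whether reads in introns were counted is not stated, and these levels would shift if they were.

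**Figure D5:**
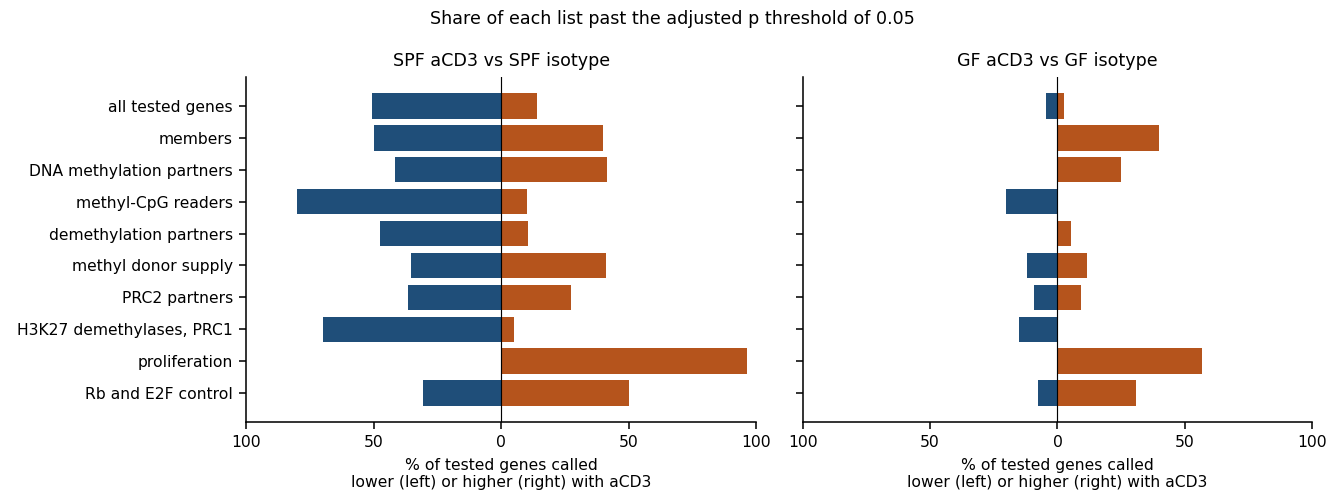
Share of tested genes of each list called lower (left) or higher (right) with aCD3 in SPF and GF, beside all tested genes and the 10 members. Proliferation genes lie almost wholly to the right in SPF, methyl-CpG readers and the list of H3K27 demethylases and Polycomb repressive complex 1 mostly to the left; the bars are from TPM as deposited, and after scaling the readers split into 5 lower and 3 higher.

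Partner genes of the same pathways, from lists without the members, were counted in the same fits with aCD3. Over all tested genes 14.2% were higher and 50.7% lower in SPF (30.2% and 29.8% after scaling). In GF 2.46% were higher and 4.61% lower (685 and 490 of 12182 genes after scaling). The counts below stand beside these backgrounds. The GF counts are as fragile as those of the members: no gene of the table was called by limma without GF aCD3 M1, M2 or M5, without any 1 of the 10 GF isotype libraries, with a pseudocount of 0.1, with no filter on low values or with the 2 groups fitted alone. In the last 3 of these fits 4339, 4963 and 2355 genes had p below 0.05 before adjustment. Of 12 tested partners of DNA methylation (of 14 listed), 5 were higher and 5 lower in SPF, with a median change of -0.02 beside -0.35 for all genes. After scaling 7 were higher and 2 lower. The highest was Lig1, the ligase of replicating DNA, at 1.95 (SE 0.26), from 7.46 to 31.6 mean TPM, and the lowest Zbtb24, a zinc finger regulator, at -0.78 (SE 0.16). In GF 3 were higher and none lower, between Cdca7, the partner of Hells, at 0.90 (SE 0.25), and Cdca7l at 0.40 (SE 0.12), and after scaling 4 were higher.

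Of 10 methyl-CpG readers, proteins that bind methylated DNA, 8 were lower and 1 higher in SPF, with a median of -0.54, where 50.7% of all tested genes were lower. After scaling 5 were lower and 3 higher. Zbtb4, a zinc finger reader, was lowest at -1.58 (SE 0.21), from 21.4 to 6.49 mean TPM, and Mbd4, which also cuts out mispaired thymine, was the member higher, at 0.62 (SE 0.17). In GF 2 were lower, Zbtb4 at -0.62 (SE 0.19) and Zbtb33 at -0.32 (SE 0.08), and none higher. After scaling Zbtb33 did not pass (-0.16, limma adjusted p = 0.0732), and 1 was lower and 1 higher, Mbd3 at 0.42 (limma adjusted p = 0.0410). Of 19 tested partners of demethylation (of 20 listed), 2 were higher and 9 lower in SPF, with a median of -0.15, a share lower that is near the 50.7% of all tested genes. Parp1, a sensor of DNA breaks, was highest at 0.37 (SE 0.10), and Gadd45g, a stress-induced adaptor, lowest at -1.78 (SE 0.34). In GF Parp1, at 0.31 (SE 0.10), was the 1 gene called, against 2 higher after scaling. After scaling the SPF counts of this list were 7 higher and 3 lower.

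Of 17 genes that supply the methyl donor, 7 were higher and 6 lower in SPF, with a median of 0.16. After scaling 9 were higher and 4 lower. Psat1, of serine synthesis, was the highest at 1.42 (SE 0.21). In GF 2 were higher and 2 lower, with Psat1 again the highest at 0.69 (SE 0.20), and after scaling 4 were higher and 2 lower.

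Partners of Ezh2 and Ezh1 in Polycomb repressive complex 2 were 3 higher and 4 lower of 11 tested (of 12 listed) in SPF, with a median of -0.01. Epop, a linker to elongin, was highest at 2.14 (SE 0.40), and Phf1, an accessory subunit, lowest at -1.997 (SE 0.37), from 39.96 to 9.28 mean TPM. In GF Phf19 was the 1 higher, at 0.52 (SE 0.15), and Phf1 the 1 lower, at -1.18 (SE 0.34). After scaling the counts were 7 higher and 2 lower in SPF and 1 and 1 in GF. H3K27 demethylases and members of Polycomb repressive complex 1 were 1 higher and 14 lower of 20 in SPF, with a median of -0.61, where 50.7% of all tested genes were lower. After scaling 3 were higher and 10 lower, where 29.8% of all were lower. The ends were Cbx2 at 0.73 (SE 0.16) and Cbx7 at -1.89 (SE 0.27), 2 chromodomain subunits of the same complex. In GF 3 were lower, from Cbx7 at -0.82 (SE 0.25) to the demethylase Kdm6a at -0.52 (SE 0.15), and none higher, against 3 lower and 1 higher after scaling.

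Proliferation genes were 29 of 30 higher in SPF (30 after scaling), with a median of 2.07, from Mcm4, a subunit of the replicative helicase, at 1.21 (SE 0.18), to Rrm2, of nucleotide supply, at 3.31 (SE 0.40). Mki67 itself was at 2.54 (SE 0.43, limma adjusted p = 2.48e-05), from 53.1 ± 16.2 to 302.1 ± 31.5 TPM (mean ± SD, n = 6 each). In GF 17 of 30 were higher, from Mcm4 at 0.55 (SE 0.17) to Birc5, an inhibitor of cell death active in mitosis, at 1.48 (SE 0.46), and Mki67 was at 1.24 (SE 0.39, limma adjusted p = 0.0522), and at 1.41 (limma adjusted p = 0.0465) after scaling, which passed. After scaling 23 of the 30 were higher. Genes of Rb and E2F control, some of them also in the proliferation list, were 13 higher and 8 lower of 26 in SPF (16 and 6 after scaling), between E2f8 at 2.58 (SE 0.39) and the cell cycle inhibitor Cdkn1b at -1.13 (SE 0.20). In GF 8 were higher and 2 lower (11 and 2 after scaling), between Foxm1 at 1.19 (SE 0.33) and Cdkn1b at -0.65 (SE 0.19). The part of the change in proliferation genes in that of the members was not tested.

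The genes most like each member were those with the highest Pearson's r on log2(TPM + 1) over the 28 libraries, a description in which groups, depth and scale are shared by all points. For Uhrf1 these were Cdc6 (0.992), Dut (0.991) and Fignl1 (0.990), for Hells Uhrf1 (0.981), Dut (0.980) and Smc2 (0.976), and for Dnmt1 Ctsb (0.971), Cbx5 (0.970) and AI506816 (0.969). Ezh2 was most like Nsd2 (0.970), Bard1 (0.955) and Cks2 (0.955). Uhrf1 beside Hells was the only case of a member among the 3 genes closest to another. Ezh1 was most like Fbxl20 (0.991), Clip1 (0.986) and Pcmtd1 (0.984), Tet3 most like Dock8 (0.990), Tspan14 (0.988) and Arid2 (0.987), Tet2 most like Ets1 (0.981), Osbpl3 (0.981) and Atf7ip (0.980), and Tet1 most like Zbtb44 (0.963), Mat2b (0.960) and Cdon (0.959). Dnmt3a, with Chn2 (0.938), Faah (0.928) and Gata3 (0.926), and Dnmt3b, with Pak6 (0.867), Sgk3 (0.861) and Nr2c1 (0.849), had the least close neighbours.

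The rows of the table are single RefSeq transcripts of mm10, given here by start and end counted from 1. They are Dnmt1 at chr9:20907206-20952979, Uhrf1 at chr17:56304313-56323486, Hells at chr19:38930990-38968277, Dnmt3a at chr12:3891744-3914443, Dnmt3b at chr2:153649449-153687730, Tet1 at chr10:62804570-62887324, Tet2 at chr3:133463677-133544390, Tet3 at chr6:83362374-83441678, Ezh2 at chr6:47530274-47595030 and Ezh1 at chr11:101191115-101226463. The Dnmt3a row begins at 3891744, downstream of the starts at 3806980 and 3807160, and so spans the short form of the gene. Dnmt1 and Tet3 each overlap a microRNA row on the same strand, and the use of strand in counting is not stated.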

How the data were processed

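Bulk RNA-seq of 28 libraries was used. Per the file headers, the authors deposited TPM made with HOMER over RefSeq transcripts of mm10, with transcripts condensed by gene; the length column equals the genomic span in 99.24% of rows. The aligner, its version and the use of strand are not given in the sources used here, and the labels name both a total RNA kit and polyA RNA. The table's 26 TPM columns that match no sample were not used.

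Genes with at least 1 TPM in at least 6 libraries were tested with limma 3.58.1 (R 4.3.3) on log2(TPM + 1), a pseudocount of 1, with a mean per group, a sex term and a mean-variance trend. P-values were adjusted by Benjamini-Hochberg over all tested genes in each of 6 comparisons, threshold 0.05. Reads were recovered from the deposited TPM, where 100.0% of values under 30 reads were whole to within 0.1 read. Read totals, 6765529 to 17860613, cover counting error only. The fit was run on simulated data with the same spread in every group, which cannot bear on the uneven GF aCD3 libraries. Python 3.11.15 and pandas 2.3.3 were used.

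Named genes were the 10 members, the 3 genes most like each by Pearson's r (leaving out Gm, Rik, Mir and Snor symbols), and in each list the called genes with the largest and smallest change, plus Mki67; 1 gene that this rule names is not reported here. Col1a2, Cd68, Fcer1g, Cd8b1 and Mbd3 were named after their values were seen. The members and lists were chosen with earlier results of these data known. Alternatives were pseudocounts of 0.1 and 5, other filters, scaling, weights, terms and groups in the fit, and leaving out each library.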

Additional observations from a re-analysis of the deposited data

Results flagged for a closer look

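In 5 of 40 sets of values (10 members in 4 groups) a library stood far from the rest of its group, where chance alone gives about 1 in 20. The SPF isotype library F3 was low in 3 of them: Tet2 at 8.56 TPM (others 13.4 to 16.0), Tet3 at 10.4 TPM (others 14.9 to 17.4) and Ezh1 at 18.4 TPM (others 25.2 to 28.9). In that library the ribosomal precursor Rn45s took 22.9% of the summed TPM, the largest share among SPF isotype libraries. Its part was not tested. The 9 members called in SPF were called without that library as well. Dnmt3b was high at 1.36 TPM in SPF isotype M1 (others 0.729 to 0.934) and at 2.40 TPM in GF isotype F5 (others 0.933 to 1.66).

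For Dnmt3a the interaction test passed near the threshold, with a GF minus SPF difference of the aCD3 effect of 0.65 (limma adjusted p = 0.0473). The limma adjusted p over the other settings ran from 0.0212 to 0.0706, and the call held in 4 of 11. On leaving out a library it ran from 0.0070 to 0.1128, and the call held in 6 of 28 fits.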

How the results depend on the processing

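In SPF the 9 members called were the same under all 12 leave-one-out fits and under every other setting in which they were tested. Tet1 was not tested under the filter of 5 TPM or with the 2 groups alone, and Dnmt3b was called too with array weights (-0.26, limma adjusted p = 0.0254). Over 642 values of members under settings other than leaving out a library, 570 kept direction and call, 40 lost the call, 12 gained it and 20 changed sign. The fewest reads behind a value were 24 for Tet1 and 35 for Dnmt3b. The cause of the changes below was not tested.

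In GF, aCD3 against isotype (4 members and 862 genes called), 0 members and 0 genes passed with a pseudocount of 0.1 (adjusted p of the 4 members 0.0514), with no low-value filter (0.0822), with the 2 groups compared alone (0.2466) and within the first or the second block of sample numbers; 4339, 4963, 2355, 1661 and 300 genes then had an unadjusted p under 0.05. Array weights gave 7 members and 3636 genes, no sex term 2472 genes and the block as a term 2215. Leaving out a library gave 0 to 7 members and 0 to 4215 genes. The change of Dnmt3a was 0.13 after median-of-ratios scaling, 0.087 without Rn45s and histone genes, 0.15 with voom on recovered reads, 0.0088 with the block as a term and 0.11 within the second block, and ran from -0.12 to 0.063 on leaving out a library.

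Between GF and SPF isotype, 874 genes became 204 after scaling, 225 with voom, 2369 without Rn45s and histone genes, 1904 with array weights and 1814 with the 2 groups alone, where 1 member, Dnmt1, passed (0.18, adjusted p = 0.0342); leaving out a library gave 322 to 987. Hells went to -0.021 after scaling and -0.031 with voom. Ezh1 went to -0.10 after scaling and -0.10 with voom, to -0.022 with array weights, and from -0.032 to 0.10 on leaving out a library. Between GF and SPF aCD3, 6496 genes became 3988 after scaling and 3680 with array weights. Members called were 4 with array weights, 4 with the 2 groups alone and 4 to 8 on leaving out a library. With the 2 groups alone 8 members were tested, without Tet1 and Dnmt3b. With no low-value filter Uhrf1 (limma adjusted p = 0.0653) and Hells (0.0748) lost the call. Ezh2 went to 0.0285 with array weights and ran from -0.15 to 0.088 on leaving out a library.

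After scaling, genes called higher and lower went from 300 and 562 to 685 and 490 in GF with aCD3, from 782 and 92 to 63 and 141 between GF and SPF isotype, and from 297 and 127 to 646 and 735 for the difference of the aCD3 effect.

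For the difference of the aCD3 effect (1 member, 424 genes), 0 members passed with a pseudocount of 5 (273 genes), no low-value filter (233 genes), scaling (1381 genes), voom (1824 genes), array weights (159 genes) or without Rn45s and histone genes; a pseudocount of 0.1 gave 774 genes. Leaving out a library gave 0 to 6 members and 32 to 3187 genes. Dnmt3b went to 0.022 with array weights and ran from -0.10 to 0.018 on leaving out a library. Between the sexes, Tet2 went to -0.0052 with a pseudocount of 5, Hells to -0.13 and Ezh1 to 0.084 with array weights, and Ezh1 to 0.029 after scaling and 0.0245 with voom; on leaving out a library Hells ran from -0.16 to 0.11, Tet2 from -0.055 to 0.055 and Ezh1 from -0.056 to 0.13.

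Replicate names are shared between groups. Over 32 pairs of libraries with the same name the correlation of deviations from the group means ran from -0.208 to 0.198, and 5 were over 0.1, so the names were not taken as pairs. With the replicate as a block, 0 members and 0 genes passed in GF (adjusted p of the 4 members 0.0628 to 0.0672), 0 members and 162 genes for the difference of the aCD3 effect, Ezh1 between GF and SPF isotype went to -0.085, Ezh2 between GF and SPF aCD3 to 0.020 and Dnmt3b in the difference to 0.016; it also ended the calls of Uhrf1 (adjusted p = 0.1494) and Hells (0.1471) between GF and SPF aCD3, and in SPF the block kept 9 members.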
